A study of Mus musculus with 6 samples.

Results

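The genes of the nuclear pore and of the receptors that carry cargo through it were followed in xenografts of STS26T. This established human cell line came from a malignant tumour of the peripheral nerve sheath (MPNST). Members were the gene symbols of the deposited table that begin with NUP and a digit (nucleoporins) or that name a karyopherin (KPNA, KPNB, IPO, TNPO and XPO symbols, and CSE1L), whose FPKM averaged 1 or more across the tumours. FPKM scales the sequenced fragments of a gene by its transcript length and by the size of the library, so levels of different genes can be set side by side. Of 47 matching symbols among 23284 genes, 43 met the minimum: 19 nucleoporins and 24 karyopherins. NUP210, at a mean of 1.17 FPKM, lay just inside the minimum. The closest below it was KPNA7 at 0.298 FPKM, followed by NUP62CL, NUP210L and the pseudogene NUP210P1, the last of them listed at 0 in every tumour.

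The 6 tumours grew under the skin of athymic nude mice, which lack T cells, for 1 week before treatment. In the anti-ENG group, 3 tumours, mice received TRC105 together with M1043, monoclonal antibodies against human and mouse endoglin (ENG). In the IgG control group, also 3 tumours, they received the corresponding IgG. Both were given at 10 mg/kg into the peritoneum, 2 times a week for 3 weeks. All tumours came from a single cell line, and the stroma of such tumours is the mouse's own. The values are of human genes, and how much mouse RNA they hold was not tested.

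Nuclear pores are large channels in the nuclear envelope, built from many copies of a set of nucleoporins. Structural nucleoporins form outer and inner rings, while others carry the disordered phenylalanine-glycine repeats that fill the channel or face the cytoplasm and the nuclear basket. Proteins with a classical import signal are bound by importin alpha, which joins importin beta (KPNB1) to pass the pore. The small GTPase Ran, kept in its GTP form in the nucleus by RCC1, releases import cargo and loads exportins, and CSE1L returns importin alpha to the cytoplasm. KPNA2 is the importin alpha best known for high levels in dividing and tumour cells.

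The tumours differed in depth and in markers of other cells. Relative sequencing depth, read from the smallest values, ran from 1 (IgG control 1, the reference) to 1.46 (anti-ENG 1), and FPKM sums ran from 410786 to 475146. Of the genes tested, anti-ENG 1 held the highest value in 30.5% and the lowest in 25.4%. The labelled tissue's markers were mixed. Of 10 Schwann and neural crest markers, which summed to 79.5 to 92.5 FPKM under IgG and 49.2 to 86.9 under anti-ENG, CDH19 was listed at 0, and the defining SOX10 and S100B had group means of at most 0.0999 and 0.0347 FPKM. SOX9 had 20.9 and 24.02 FPKM in the IgG and anti-ENG groups. NES had 56.1 and 37.6 FPKM, without overlap, and SOX2 had 7.30 and 5.42 FPKM. Fibroblast markers had a summed level of 843 to 1577 FPKM under IgG and 378 to 963 under anti-ENG, with 0 of 10 at 0 in all tumours. On average 9 of 10 were lower, while 51.2% of all genes tested were above 0. In 1 of 10 the groups lay apart, lower under anti-ENG (against 6.75% of all genes). Endothelial markers summed to 6.52 to 10.0 and 7.72 to 10.3 FPKM, with 0 of 10 at 0 in all tumours. The endothelial genes CDH5 and KDR had group means of at most 0.149 and 0.0350 FPKM. Leukocyte and macrophage markers summed to 64.0 to 122 and 75.5 to 102 FPKM, of which CD68 gave means of 78.4 and 81.5 FPKM, while PTPRC (CD45) had 0.555 and 0.668 FPKM and 0 of 10 were at 0 in all tumours. The part of these in the results was not tested. In bulk tumours, fewer cells of a type and less RNA per cell cannot be told apart.

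Several transport receptors had high levels, while most nucleoporins lay in a narrow band. KPNB1 was the most abundant member, with a mean of 128.6 FPKM over the 6 tumours. CSE1L followed at 98.7, KPNA2 at 96.2, XPO1 (CRM1, the export receptor for leucine-rich signals) at 66.7 and IPO7 at 62.4 FPKM. These 5 karyopherins lay in the top 10% of genes tested by level, and 0 nucleoporins did. KPNB1 exceeded KPNA2 in every tumour, whereas CSE1L and KPNA2 changed order between tumours and did not differ beyond their spread. The nucleoporins had a median level of 18.98 FPKM, and 17 of 19 lay between 10 and 40. The scaffold gene NUP93 led them at 53.8 FPKM and NUP210, which encodes a membrane nucleoporin, was lowest at 1.17. The 24 karyopherins had a median of 22.1 FPKM and ran down to KPNA5 at 2.67. Of these 24, 15 lay between 10 and 40 FPKM.

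Under anti-ENG treatment, KPNA2 had the largest log2 fold change and the smallest unadjusted p of the members, while the classes as a whole showed small average differences. Of the 43 members, 34 had a log2 fold change above 0 (79.1%, against 51.2% of all 12586 genes tested), and their median log2 fold change was 0.12 (1.09-fold), against 0.0065 for all genes. By limma, 0 members passed an adjusted p under 0.05, as did 0% of all genes. The smallest adjusted value, shared by members and the whole table, was 0.529. Before adjustment, with p under 0.05, 5 members were higher (11.6%, against 5.56% of all genes) and 0 were lower (against 3.61%). The tumours of the groups did not overlap in 8 members that were higher under anti-ENG (18.6%, against 10.6% of all genes) and in 1 that was lower (2.33%, against 6.75%).

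These counts depended on the scaling and on single tumours. With every tumour rescaled to the same FPKM sum, which moved the median of all genes from 0.0065 to -0.10, 22 members were above 0 and 21 below, and the members' median was 0.0030. The members therefore lay 0.11 above the median of all genes as deposited and 0.10 above it after that rescaling. This gap was 0.066 after cyclic loess, 0.066 after quantile normalization and 0.042 with sample weights. Without anti-ENG 1, 27 members were above 0, the median was 0.045 and the gap 0.036. The gap was 0.069 without IgG control 1 and 0.023 without both tumours. The 5 members at an unadjusted p under 0.05 became 2 without IgG control 1, 2 without IgG control 2 and 3 without anti-ENG 1. In the whole table, the median log2 fold change also climbed with level, from -0.075 in the lowest of 10 equal classes of level to 0.16 in the highest. The share of genes above 0 rose from 39.0% to 72.0% between these classes. The part of level in the members' values was not tested.

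**Figure D1:**
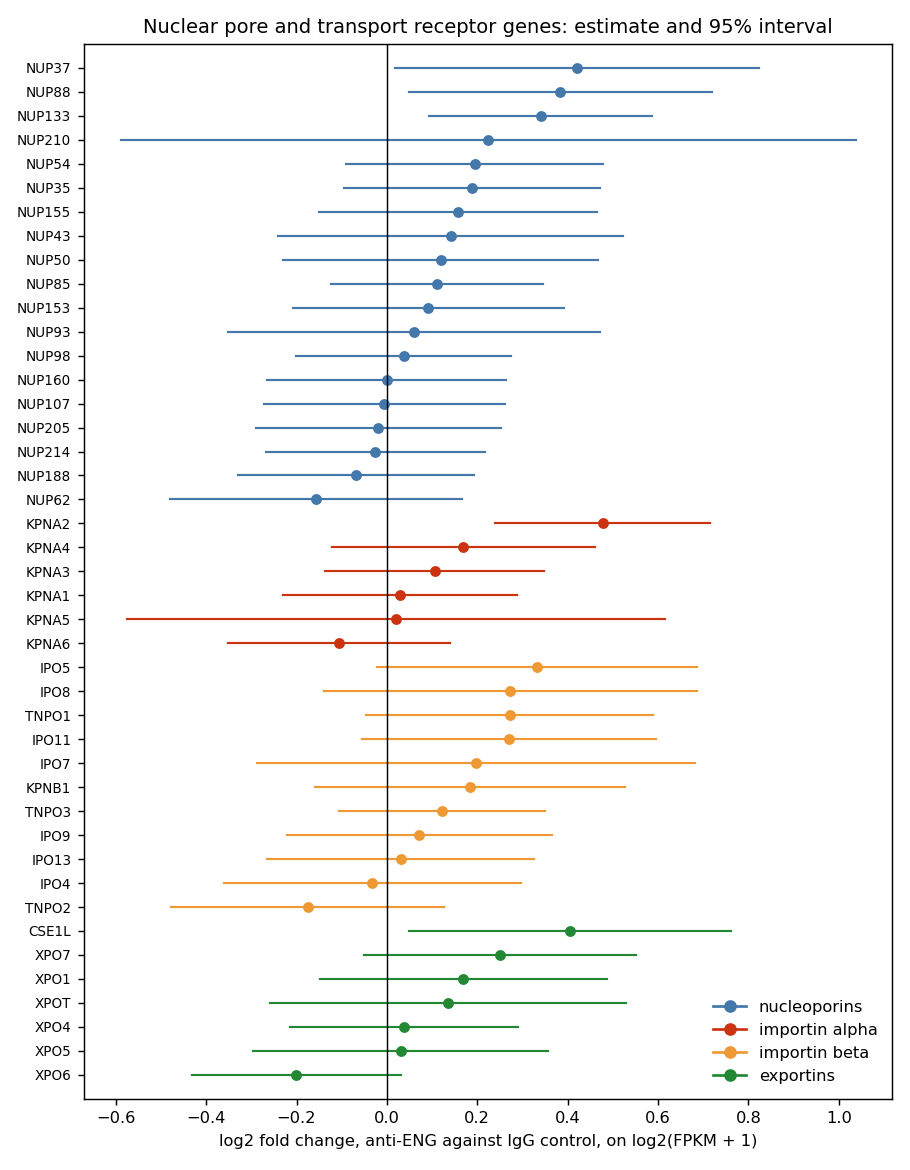
Log2 fold change (anti-ENG against IgG control, on log2(FPKM + 1)) of the 43 members, as points with 95% confidence intervals from limma, coloured by class. The intervals of KPNA2, CSE1L, NUP133, NUP88 and NUP37 lie above 0 before adjustment, and the others cross it.

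The IgG control tumours 1, 2 and 3 had KPNA2 levels of 79.2, 79.7 and 81.6 FPKM, and anti-ENG tumours 1, 2 and 3 had 118, 109 and 109 FPKM. Every anti-ENG tumour thus lay above every IgG tumour, by a margin wider than the spread within either group. The means were 80.2 ± 1.29 and 112 ± 5.46 FPKM (SD, n = 3 each). The log2 fold change was 0.48, or 1.39-fold on log2(FPKM + 1) (SE 0.10, 95% interval 0.24 to 0.72, limma adjusted p = 0.529). It did not pass the threshold. The exact two-sided permutation p was 0.1, the smallest that 3 against 3 tumours can give. It takes the tumours as separate, though codes in the sample descriptions share a number within IgG control 2 and 3 and within anti-ENG 1 and 2. Within each of these pairs the codes differ only in a final L or R, whose meaning is not stated.

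Among the 43 members KPNA2 ranked first by log2 fold change and first by unadjusted p (0.0019), and its level ranked 3. Among all 12586 genes it ranked 23 by unadjusted p, 9 among genes with a higher estimate, and 295 by log2 fold change. Its rank by unadjusted p among all genes was 25 without anti-ENG 1 and 67 to 124 without any other single tumour. It was 120 after quantile normalization, 132 with tumours of the same code number averaged, 142 after cyclic loess and 241 with equal FPKM sums. Its within-group SD was 0.051 on the log2 scale, the second smallest of the members after TNPO3. The median within-group SD was 0.15 for the members and 0.19 for all genes. KPNA2 kept the first rank by p among the members in all 19 alternatives. Its rank by log2 fold change was 1 to 3, its estimate ran from 0.34 to 0.50 and its limma adjusted p from 0.377 to 0.831. The median of all genes in its class of level (the highest of 10) was 0.16.

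**Figure D2:**
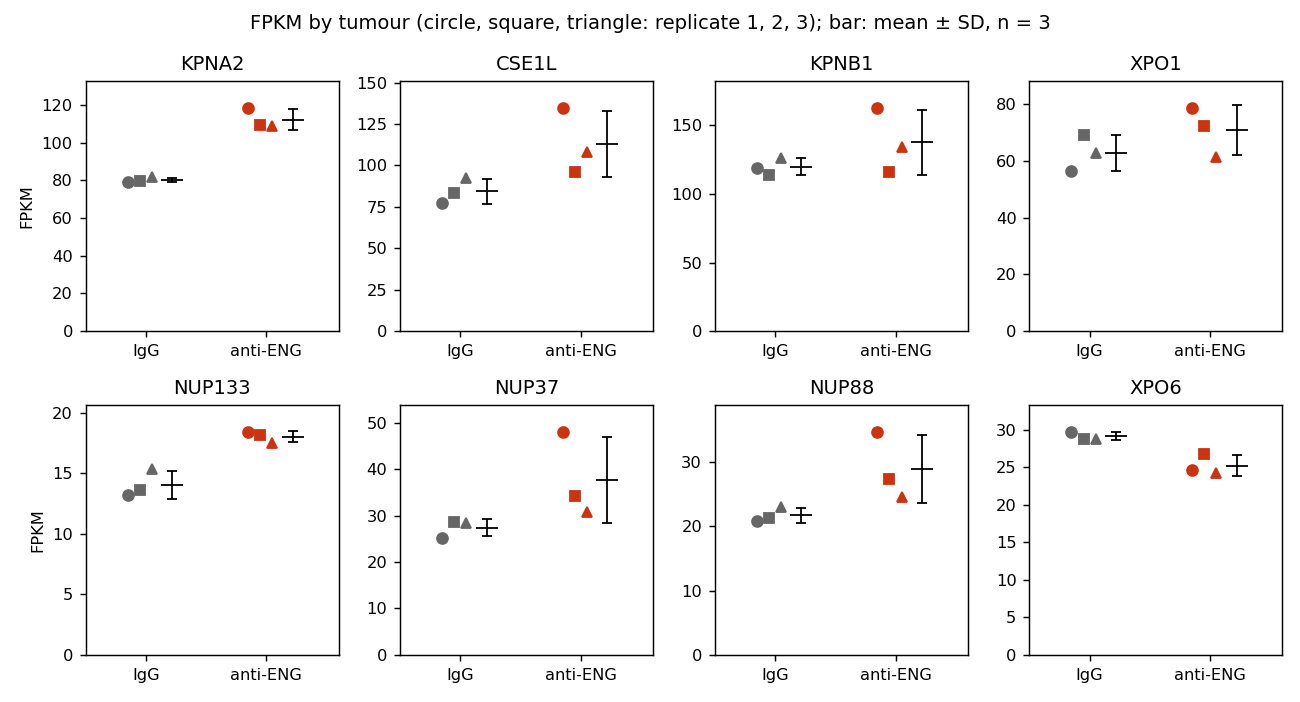
FPKM (linear axis from 0) of 8 members in each tumour, with the group mean and SD beside the points. KPNA2 and NUP133 separate the groups with little spread, CSE1L, NUP37 and NUP88 separate them with anti-ENG 1 highest, KPNB1 and XPO1 overlap, and XPO6 is lower under anti-ENG.

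The other importin alpha genes had estimates closer to 0. KPNA4 had a log2 fold change of 0.17 (adjusted p = 0.629 by limma), KPNA3 0.11, KPNA1 0.029 and KPNA5 0.021, and KPNA6 had -0.11. In each of these 5 the tumours of the groups overlapped. The median of the 6 importin alpha genes was 0.067, and 0.035 without anti-ENG 1. With equal FPKM sums 2 of the 6 were above 0. KPNA3, for example, had 23.5, 26.3 and 22.6 FPKM under IgG and 26.0, 26.4 and 25.6 under anti-ENG.

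Shares within a tumour do not change when all its values are multiplied by the same factor. Scalings that depend on level can change them, and the shares were not computed after those. The KPNA2 log2 fold change, 0.48 as deposited, was 0.39 after quantile normalization and 0.34 after cyclic loess. KPNA2 made up 51.4, 50.7 and 53.1% of the summed importin alpha FPKM in IgG control 1, 2 and 3. In anti-ENG 1, 2 and 3 it made up 58.6, 59.1 and 58.7%. The groups did not overlap, with means of 51.7 ± 1.26% and 58.8 ± 0.267% (SD, n = 3 each). The depth in fragments behind these shares is unknown. The ratio of KPNA2 to its partner KPNB1 was 0.665, 0.699 and 0.647 under IgG and 0.728, 0.944 and 0.813 under anti-ENG, again without overlap. The ratio of KPNA2 to CSE1L overlapped, at 1.02, 0.958 and 0.884 against 0.879, 1.14 and 1.00. These ratios were formed because KPNA2 was already known to differ, and are given as descriptions.

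**Figure D3:**
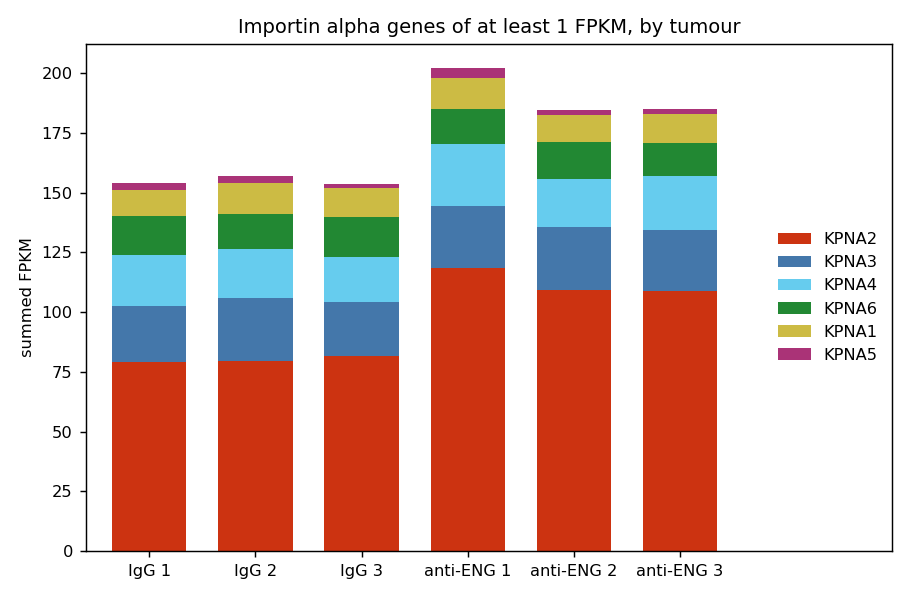
Stacked FPKM of the 6 importin alpha genes of at least 1 FPKM in each tumour, on a linear axis from 0. The sum is 154 to 157 FPKM in the IgG tumours and 185 to 202 in the anti-ENG tumours, and the KPNA2 segment accounts for most of the difference.

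Processed copies of KPNA2 exist in the human genome, and the sources used here do not say how reads that fit several places were shared. KPNA7, the closest relative of KPNA2, had 0.123 to 0.481 FPKM across the tumours.

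In the importin beta class, 9 of 11 genes were above 0 (against 51.2% of all genes). By limma, 0 of them had an unadjusted p under 0.05 (against 5.56% of all genes higher and 3.61% lower). The median log2 fold change of the class was 0.18 (0.056 without anti-ENG 1), and 7 genes were above 0 with equal FPKM sums. KPNB1 had 119, 114 and 126 FPKM under IgG and 163, 116 and 134 under anti-ENG. Only anti-ENG 1 and 3 lay above all IgG tumours, and the log2 fold change of 0.18 (SE 0.15; adjusted p = 0.655 by limma) was within the spread. Without anti-ENG 1 it was 0.056.

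Groups did not overlap in 3 of 11 importin beta genes, all higher under anti-ENG (27.3%, against 10.6% of all genes). IPO5, an importer of ribosomal proteins and histones, had 19.5, 27.5 and 26.4 FPKM under IgG and 30.1, 28.9 and 33.3 under anti-ENG. Its log2 fold change was 0.33 (limma adjusted p = 0.529), and 0.18 without IgG control 1, the lowest tumour. TNPO1, which imports the RNA-binding hnRNP proteins, had 16.8, 17.5 and 17.7 FPKM against 25.2, 18.03 and 20.8, a log2 fold change of 0.27, and 0.15 without anti-ENG 1. TNPO3, an importer of serine-arginine splicing factors, had means of 24.5 ± 0.832 and 26.7 ± 0.858 FPKM (SD, n = 3 each). Its estimate of 0.12 was the smallest of the members with groups apart.

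The remaining importin beta genes overlapped between groups. IPO8 was at 0.27, IPO11 at 0.27, IPO7 at 0.20, IPO9 at 0.072 and IPO13 at 0.030. IPO7 was at 0.010 without anti-ENG 1, where it peaked at 85.4 FPKM. The estimates below 0 were those of IPO4 (-0.032) and of TNPO2, a close relative of TNPO1, at -0.18 with means of 38.5 and 33.8 FPKM. TNPO2 was at -0.29 without IgG control 1.

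Of the 7 exportins, 6 were above 0 and 1 below (against 51.2% of all genes above 0). Their median log2 fold change was 0.14 (0.090 without anti-ENG 1), and 4 were above 0 with equal FPKM sums. CSE1L had 77.7, 83.1 and 92.4 FPKM under IgG and 135, 95.8 and 108 under anti-ENG. The groups lay apart, while the gap between IgG control 3 and anti-ENG 2 was small against the spread. Its log2 fold change was 0.41 (SE 0.15; adjusted p = 0.529 by limma), and 0.27 without anti-ENG 1. XPO6, the exporter of actin-profilin complexes, was the 1 member lower without overlap, at 29.7, 28.8 and 28.8 FPKM against 24.6, 26.8 and 24.3. Its log2 fold change was -0.20 (SE 0.099; adjusted p = 0.539 by limma), and it ran from -0.24 to -0.17 when any 1 tumour was left out.

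XPO1 overlapped between groups, with 56.4, 69.0 and 62.5 FPKM against 78.6, 72.2 and 61.3, a log2 fold change of 0.17 (limma adjusted p = 0.658). XPO7 was at 0.25, the tRNA exporter XPOT at 0.14, XPO4 at 0.037 and XPO5, which exports precursor microRNAs, at 0.030. XPOT was at -0.00085 and XPO5 at -0.089 without anti-ENG 1.

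Among the nucleoporins, 14 of 19 were above 0 (against 51.2% of all genes) and 5 below, with a median log2 fold change of 0.11. This median was 0.014 without anti-ENG 1, and -0.0040 with equal FPKM sums, where 9 were above 0. Of the outer ring Y complex, 5 of 6 genes were above 0 (3 with equal FPKM sums), against 51.2% of all genes. In 2 of 6 the groups lay apart, higher under anti-ENG (against 10.6% of all genes). NUP133 had 13.2, 13.6 and 15.4 FPKM under IgG and 18.5, 18.2 and 17.5 under anti-ENG. Every anti-ENG tumour was higher, and the p was the second smallest of the members. The log2 fold change was 0.34, or 1.27-fold on log2(FPKM + 1) (SE 0.11, limma adjusted p = 0.529). Without anti-ENG 1 it was 0.32. NUP37 had 25.2, 28.6 and 28.4 FPKM against 48.1, 34.1 and 30.8, and its log2 fold change of 0.42 became 0.24 without anti-ENG 1. The others of this complex lay close to 0 or overlapped: NUP43 at 0.14, NUP85 at 0.11, NUP160 at 0.000011 and NUP107 at -0.0055. The Y complex protein NUP96 is cut from the product of the NUP98 gene and has no value of its own here.

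The cytoplasmic gene NUP88, which anchors NUP214 to the pore, had 20.8, 21.3 and 23.0 FPKM under IgG and 34.8, 27.3 and 24.6 under anti-ENG. The groups lay apart, with a log2 fold change of 0.38 (SE 0.14; adjusted p = 0.529 by limma) that became 0.25 without anti-ENG 1. Its partner NUP214 was at -0.026, with 10.1 to 11.4 FPKM over all tumours. In the inner ring, 3 of 5 genes were above 0 (against 51.2% of all genes). In 0 of 5 did the groups lie apart (against 10.6% of all genes higher and 6.75% lower). NUP35 was at 0.19, NUP155 at 0.16, NUP93 at 0.061, NUP205 at -0.019 and NUP188 at -0.068. NUP93 was at -0.10 without anti-ENG 2, its highest tumour at 68.5 FPKM.

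In the central channel NUP54 was at 0.19 and NUP98 at 0.038. NUP62, the partner of NUP54 there, was at -0.16, with 25.3 FPKM in anti-ENG 1 and 33.2 to 35.3 FPKM in the other 5 tumours. Without anti-ENG 1 it was at -0.020. Transcripts of IL4I1 overlap NUP62, and their reads may not be told apart. The basket genes NUP50 and NUP153 were at 0.12 and 0.092, and at -0.015 and -0.026 without anti-ENG 1. NUP210 ranged from 0.406 to 2.67 FPKM and was at 0.22 (SE 0.35), or -0.13 without anti-ENG 3.

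**Figure D4:**
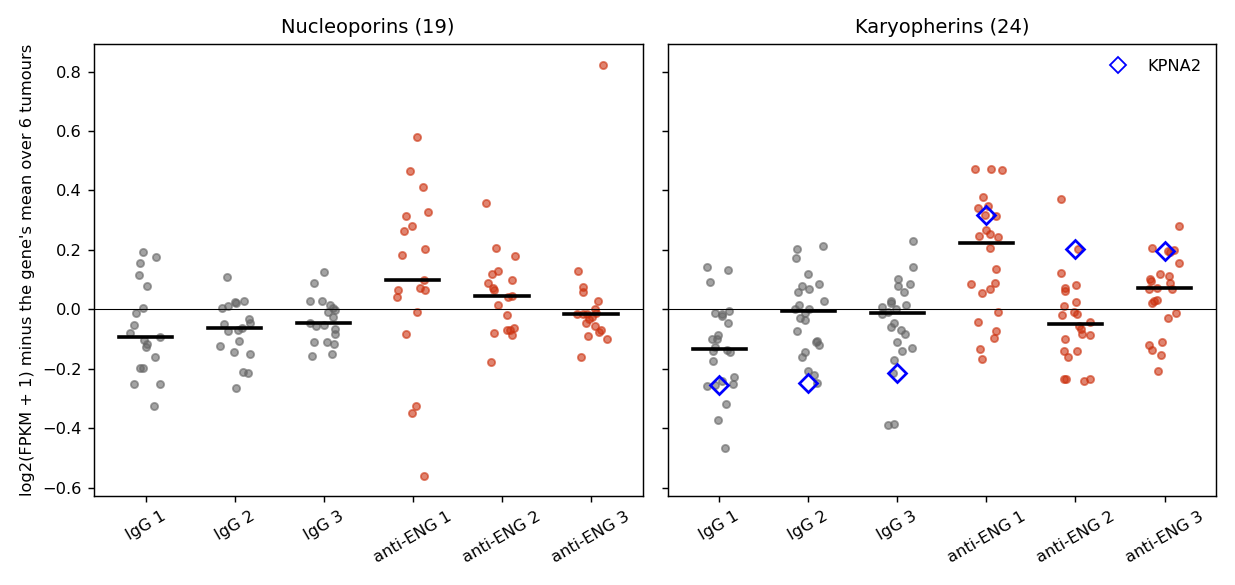
Each member's log2(FPKM + 1) minus its mean over the 6 tumours (points), with the class median (bar), for nucleoporins and karyopherins by tumour. Anti-ENG 1 lies highest in both classes, at a median of 0.22 for karyopherins, while KPNA2 (diamonds) is about equally high in anti-ENG 2 and 3.

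Set against each other, the classes had similar medians, and a difference in response between them was not tested. The karyopherin median was 0.13 and the nucleoporin median 0.11, a difference of 0.018, which was -0.030 after cyclic loess and -0.025 after quantile normalization. Per tumour, the mean log2(FPKM + 1) of karyopherins exceeded that of nucleoporins by 0.34, 0.46 and 0.40 in the IgG tumours and by 0.48, 0.33 and 0.44 in the anti-ENG tumours, and these overlapped. Summed over its 24 genes, the karyopherin level was 732, 801 and 799 FPKM under IgG and 999, 821 and 870 under anti-ENG. The 19 nucleoporins summed to 389, 386 and 395 FPKM against 447, 427 and 402. The ratio of these sums was 1.99 ± 0.0980 and 2.11 ± 0.163 (SD, n = 3 each).

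Single tumours took a large part of the extremes. Anti-ENG 1 held the highest value of 23 of the 43 members (53.5%, against 30.5% of all genes), 14 of them karyopherins. IgG control 1 held the lowest value of 18 members (41.9%, against 21.5% of all genes). The median karyopherin deviation was 0.22 in anti-ENG 1, -0.051 in anti-ENG 2 and 0.071 in anti-ENG 3, so anti-ENG 2 lay below the IgG control 2 and 3 tumours at -0.0046 and -0.012. Of the 34 members above 0, 20 shrank by over 1.5 times or turned without anti-ENG 1, and 8 of those turned below 0.

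**Figure D5:**
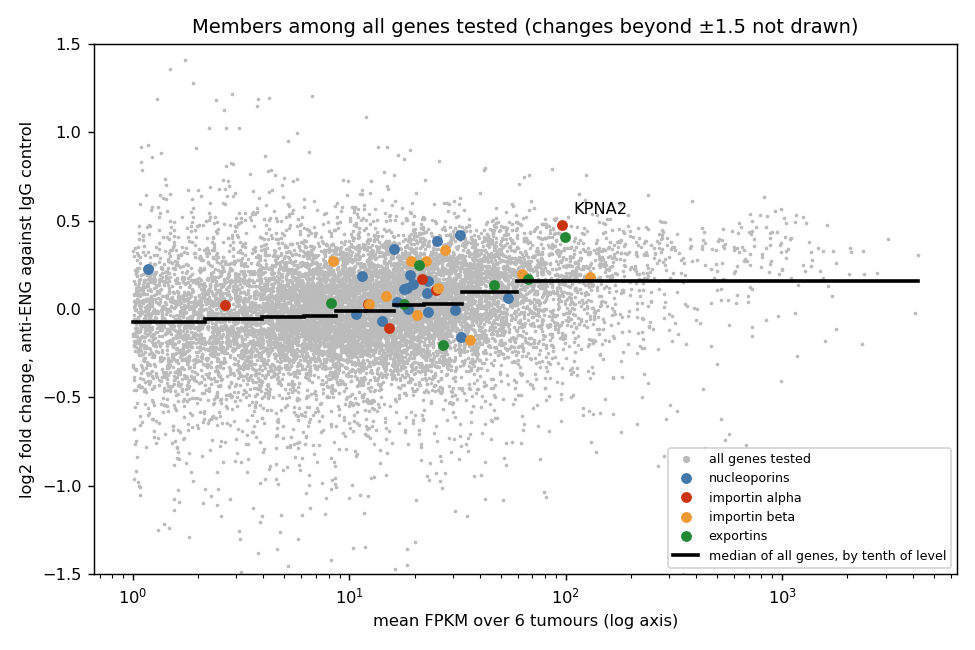
Log2 fold change against mean FPKM (log axis) for all genes tested (grey) and the members (coloured), with the median of all genes in each of 10 classes of level (black). The black steps climb from -0.075 to 0.16, and KPNA2 lies at 0.48 in the highest class.

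Genes of the same pathway outside the member symbols were read from lists drawn up by role. Of 7 Ran cycle genes, 6 were above 0 (against 51.2% of all genes), with a median log2 fold change of 0.26. By limma, 2 were higher at an unadjusted p under 0.05 (against 5.56% of all genes), and 0 passed the adjusted threshold. In 3 of 7, RAN and NUTF2 among them, the groups lay apart, higher under anti-ENG (against 10.6% of all genes). The median of the list was 0.17 without anti-ENG 1 and 0.14 with equal FPKM sums. RAN had 257, 300 and 276 FPKM against 462, 329 and 340, a log2 fold change of 0.42 (limma adjusted p = 0.529), and 0.27 without anti-ENG 1. NUTF2, which imports Ran, had 72.1, 64.8 and 68.2 FPKM against 85.8, 82.2 and 79.3, a log2 fold change of 0.27. RCC1 was at 0.29, the Ran GTPase activator RANGAP1 at 0.15 and RANBP3 at -0.0083.

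Of 13 other pore genes, 6 were above 0 (against 51.2% of all genes) and 7 below, with a median of -0.0075. By limma, 0 had an unadjusted p under 0.05 (against 5.56% of all genes higher and 3.61% lower). The Y complex gene SEH1L was at 0.27 and the mRNA export factor GLE1 at 0.20, both with groups apart (2 of 13, against 10.6% of all genes), and TMEM48 (NDC1, a membrane nucleoporin) at 0.31. RANBP2 was at -0.10, AAAS at -0.16 and POM121 at -0.13. POM121 and POM121C are near-identical copies, so their values are uncertain.

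Of 16 mRNA export genes, 10 were above 0 (against 51.2% of all genes) and 6 below, with a median of 0.11 (-0.0050 with equal FPKM sums). By limma, 2 were higher at an unadjusted p under 0.05 (against 5.56% of all genes). Groups lay apart in 3 genes in each direction (against 10.6% of all genes higher and 6.75% lower). The adaptor ALYREF had 69.0, 70.3 and 66.1 FPKM against 77.6, 83.1 and 82.3 (log2 fold change 0.24). THOC3 was at 0.36 and THOC7 at 0.28. The export receptor NXF1, which works without Ran, was at -0.28 and overlapped between groups, MCM3AP was at -0.28 and THOC6 at -0.15, both with groups apart. In these 3 lists 0 genes passed the limma adjusted threshold.

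Genes of cell division were on average higher under anti-ENG too. All 15 G2/M genes had estimates above 0 (against 51.2% of all genes), with a median log2 fold change of 0.40 and 9 of 15 higher with groups apart (against 10.6% of all genes). Without anti-ENG 1 the median was 0.26 and 14 were above 0. Their summed level was 540 to 628 FPKM under IgG and 695 to 913 under anti-ENG. All 15 S phase genes were above 0 too (median 0.27, 5 higher with groups apart). With equal FPKM sums 13 of 15 were above 0 in each list. Over all genes, the share above 0 as deposited rose with level, from 39.0% in the lowest of 10 classes to 72.0% in the highest. The part of level in these 2 lists was not tested. By tumour, the G2/M median deviation was -0.30, -0.13 and -0.14 in the IgG tumours and 0.36, 0.11 and 0.031 in the anti-ENG tumours, and that of KPNA2 was -0.26, -0.25 and -0.21 against 0.32, 0.20 and 0.20. The part of cell division in the KPNA2 values was not tested.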

How the data were processed

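Polyadenylated RNA of 6 tumours was sequenced, with RNA integrity numbers averaging 9.8 (9.6 to 10) per the labels' protocols. The authors deposited FPKM values per gene symbol. The human build was GRCh37 (hg19), and Cufflinks 2.2.1, Cuffnorm, TopHat2 2.0.10, SAMtools 0.1.1.9 and Bowtie 1.0.0 are named, per the submitters' processing notes. The labels' protocols name more than 1 library kit and instrument without saying which served which tumour, so a difference between groups in either cannot be told apart from treatment. The sources used here do not say how strand, the Cuffnorm scaling and mouse reads were handled. Depth in fragments is unknown. Relative depth was read from genes of up to 0.05 FPKM.

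Groups and replicate numbers came from the sample titles. The anti-ENG and IgG tumours entered limma 3.58.1 (R 4.3.3) as log2(FPKM + 1). The fit used no covariate and let the variance follow the level, over 12586 genes averaging 1 FPKM or more. Fold changes are on this log2(value + pseudocount) scale and understate the change where levels are low. Tests were two-sided, with Benjamini-Hochberg adjustment over all genes and a threshold of 0.05. On simulated data of the same 12586 genes the limma step recovered 7.2% of planted log2 changes of 0.5 and 77.2% of those of 1. The same runs held planted changes of 2 and 3, which loosen the adjusted threshold, and drew each tumour independently. In the deposited data 0 genes passed, so these shares can overstate what would be found there. "Groups apart" means that all 3 tumours of a group lay above all 3 of the other. Members and lists were chosen with earlier results of these data known, so lists are described by counts and medians and were not tested. Named genes were KPNA2, KPNB1, XPO1 and CSE1L, the highest and lowest member of each class, and up to 4 members of smallest p per class and direction (3 per pathway list). Members outside this rule were added after their values were seen. The alternatives were other pseudocounts, minimum levels, scalings, variance settings, sample weights, a replicate block, averaging by code number and leaving out tumours. Nothing says that the tumours came from separate animals. Codes in the descriptions share a number within IgG control 2 and 3 and within anti-ENG 1 and 2. Within each pair they differ only in a final L or R, whose meaning is not stated. The p-values therefore measure only the spread between these samples. No sequences are shown because a human reference was not used here.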

Additional observations from a re-analysis of the deposited data

How the results depend on the processing

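In all 19 alternatives limma passed 0 genes after adjustment, and KPNA2 kept its direction. The number of members higher at an unadjusted p under 0.05, 5 as reported, was 3 after cyclic loess, 3 after quantile normalization, 2 with the replicate block, 1 with equal FPKM sums, 3 with tumours of one code number averaged, and 2 when IgG control 1 and anti-ENG 1 were both left out. It ran from 2 to 6 when 1 tumour was left out. The number of members lower at that limit, 0 as reported, was 1 after cyclic loess, with no minimum FPKM and with equal FPKM sums. It was also 1 without IgG control 1 and without both tumours. Members above 0, 34 as reported, were 22 with equal FPKM sums and 27 to 36 with 1 tumour left out. The nucleoporin median, 0.11 as reported, was -0.0040 with equal sums, 0.052 with sample weights, 0.042 without both tumours and 0.014 to 0.14 with 1 left out. The karyopherin median, 0.13, was 0.011 with equal sums and 0.035 without both tumours, and 0.067 to 0.16 with 1 left out. Karyopherin minus nucleoporin, 0.018, was -0.030 after cyclic loess, -0.025 after quantile normalization and -0.0072 without both tumours, and ran from -0.018 to 0.053 with 1 left out. Genes tested at an unadjusted p under 0.05, 700 higher and 454 lower, were 168 and 1088 with equal sums and 460 and 382 with the replicate block.

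Of the 59 genes named besides KPNA2, the other members and 17 pathway genes, 23 changed sign in some alternative, with 0 values past the threshold. With equal sums the values were -0.059 for NUP93, -0.067 for KPNA5, -0.011 for KPNA3, -0.084 for KPNA1, -0.071 for XPO4, -0.082 for IPO13, -0.042 for IPO9, -0.025 for NUP153, -0.12 for NUP160, -0.0040 for NUP85, -0.077 for NUP98 and -0.085 for XPO5. NUP93 and NUP160 were -0.041 and -0.028 after cyclic loess, and -0.024 and -0.0081 after quantile normalization. With a pseudocount of 5 NUP160 was -0.00048. With sample weights NUP214 was 0.0040, NUP205 0.0088, KPNA5 -0.063, KPNA1 -0.021 and XPO5 -0.011. With upper quartile rescaling KPNA5 was -0.0013, KPNA1 -8.35e-05 and NUP160 -0.029. With code numbers averaged KPNA5 was -0.071, NUP107 0.0055, NUP160 -0.032 and RANBP3 0.031. Without both tumours NUP214 was 0.042, NUP205 0.023, KPNA5 -0.13, KPNA1 -0.069, XPOT -0.093, IPO13 -0.015, IPO7 -0.13, IPO9 -0.0083, NUP153 -0.030, NUP43 -0.053, NUP50 -0.083, XPO5 -0.085 and RANBP3 0.030. With 1 tumour left out NUP93 ran from -0.10 to 0.24, NUP210 from -0.13 to 0.56, NUP188 from -0.11 to 0.011, NUP214 from -0.058 to 0.0088, NUP205 from -0.066 to 0.064, KPNA5 from -0.21 to 0.14, KPNA1 from -0.033 to 0.076, IPO4 from -0.14 to 0.080, XPOT from -0.00085 to 0.29, IPO13 from -0.059 to 0.11, NUP107 from -0.071 to 0.048, NUP153 from -0.026 to 0.16, NUP160 from -0.054 to 0.077, NUP43 from -0.029 to 0.26, NUP50 from -0.015 to 0.23, XPO5 from -0.089 to 0.16 and RANBP3 from -0.064 to 0.078. The causes were not tested.

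Same-numbered tumours correlated at -0.33, 0.19 and 0.037 in their deviations from the group means. Differently numbered tumours ran from -0.488 to 0.355. With deviations from means of 3 tumours, these values cannot show whether the numbers pair tumours. Depth in fragments is unknown, and with 3 tumours a group the simulated data show that log2 changes of 0.5 are mostly missed.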
